A study of Homo sapiens with 6 samples.

Results

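The MYC, MAX and MXD network comprised 10 genes, chosen by name from the 58735 genes of the table: the 3 MYC genes MYC, MYCN and MYCL, their shared partner MAX, the 5 antagonists MXD1, MXD3, MXD4, MXI1 and MNT, and the MAX-like gene MLX. They were measured by RNA-seq in HCT116 cells, an established human colorectal carcinoma line. The 3 CTR libraries came from control cells of that line, with the genotype label WT, and the 3 miR-8485 libraries from cells transfected with 50 nM miR-8485 mimics. A mimic is a synthesized copy of a mature miRNA. The study's methods have cells collected 48 h after transfection unless another time is stated, and they name no separate time for RNA-seq. What the control cells of these libraries were transfected with is not given in the sources used here. Values are FPKM, fragments scaled to the length of the gene and to the fragments of the library, so that levels of different genes can be set side by side per length.

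MYC proteins are transcription factors of the basic helix-loop-helix leucine zipper class. They bind DNA only as a pair with MAX, preferably at the E-box CACGTG, and raise the transcription of genes for ribosome assembly, metabolism and growth. The MXD proteins, MXI1 and MNT compete for the same MAX and the same E-boxes, recruit the SIN3 corepressor with its histone deacetylases and lower transcription there. MLX is a further partner that pairs with some of these antagonists and with the glucose-sensing factors MLXIP and MLXIPL. In colorectal cancer cells MYC is best known as a target of WNT signaling, which is constitutively active in HCT116 through a mutated beta-catenin.

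The sequence of the mimic is shown with its seed, bases 2 to 8, in capitals, because a miRNA recognizes mRNAs mainly through these bases.
miR-8485 mimic: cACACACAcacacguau
The seed pairs with TGTGTGT. Among the longest 3′ UTRs that GENCODE 44 (GRCh38) annotates, those of 3 of the 10 network genes held this word, 1 copy each, on the transcribed strand. Over the tested genes with an annotated 3′ UTR, 30.2% of 10673 held it. The sites are shown 5′ to 3′ with the match in capitals, since each is the only stretch of its 3′ UTR that matches the seed. They were taken from the canonical transcripts. For MAX that 3′ UTR has 1349 bases, against 2601 in the longest.
MXI1 (chr10:110286637-110286655, plus strand): ttgagtTGTGTGTtaatgt
MAX (chr14:65075322-65075340, minus strand): gggtttTGTGTGTttaggc
MYCN (chr2:15946375-15946393, plus strand): tcacctTGTGTGTtccaag
The 3′ UTRs of MYC (1993 bases), MYCL (1944 bases), MXD1 (4661 bases), MXD3 (1619 bases), MXD4 (3112 bases), MNT (2828 bases) and MLX (1636 bases) held 0 copies. With the 3′ UTR of the canonical transcript in place of the longest, the count of copies was the same for each of the 10 genes.

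The E-box CACGTG reads the same on both strands and was searched in RefSeq promoters of GRCh38.p14, from 250 bases before to 50 bases after a gene's start. Promoters were matched for 9 network genes, all but MYC, with several starts for some genes. Of these 12 promoters, 3 held an E-box, against 7.26% of all 35116 promoters and 9.72% of the 12694 promoters of tested genes. They are those of MXD4, MNT and MLX, shown with the E-box in capitals because the network's own proteins bind this word.
MXD4 (chr4:2262330-2262359, minus strand): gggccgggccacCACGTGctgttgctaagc
MNT (chr17:2401236-2401265, minus strand): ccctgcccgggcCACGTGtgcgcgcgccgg
MLX (chr17:42567038-42567067, plus strand): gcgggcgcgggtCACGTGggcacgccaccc
Such matches describe the sequence and not binding, which was not measured.

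The libraries held 17473874 to 18480047 fragments on listed genes. Mitochondrial transcripts took 7.94% to 10.2% of them in CTR and 10.6% to 11.3% in miR-8485. All 6 epithelial markers were expressed, with EPCAM between 127 and 148 FPKM, while the 4 leukocyte markers summed to at most 0.167 FPKM in any library and the 3 endothelial markers to at most 0.24. The 5 fibroblast markers summed to 4.17 to 4.40 FPKM in CTR and 6.29 to 6.43 in miR-8485, nearly all of it COL1A1 (means 4.25 and 6.31), and DCN was at 0 in every library. The summed epithelial markers were lower in miR-8485, at 1751 to 1838 FPKM against 2613 to 2838 in CTR. The keratin genes KRT8, KRT18 and KRT19 carried this sum and were lower, while mean EPCAM was 135 FPKM in CTR and 130 in miR-8485, CDH1 19.7 and 19.0, and CDX2 was higher, at 16.0 and 28.2. The part of these markers in the results was not tested. In bulk RNA, fewer cells with a transcript and less of it per cell cannot be told apart.

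Among the 9 network genes that passed the filter of a mean of at least 1 FPKM, 4 rose in miR-8485, 2 fell and 3 were not past the threshold. Over all 12349 tested genes 29.1% rose and 30.5% fell, or 59.6% in either direction, so a change as such was common in these cells. A fit of all 31768 genes above 0, in which 22.1% were called, gave 2 members higher and 2 lower, and voom on recovered fragments, with 63.3% of genes called, gave 4 and 2. MYC itself rose modestly, MAX was level within a narrow interval, and the clearest movements were among the antagonists. MXD4 rose to 1.67 times its CTR level, MXI1 fell to 0.674 times and MXD1 to 0.572 times. The tests were limma on log2(FPKM + 0.1), two-sided, adjusted over all tested genes by Benjamini-Hochberg, with a threshold of 0.05. Fold changes below are log2 values on that scale, miR-8485 minus CTR, and understate the change of low genes.

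**Figure D1:**
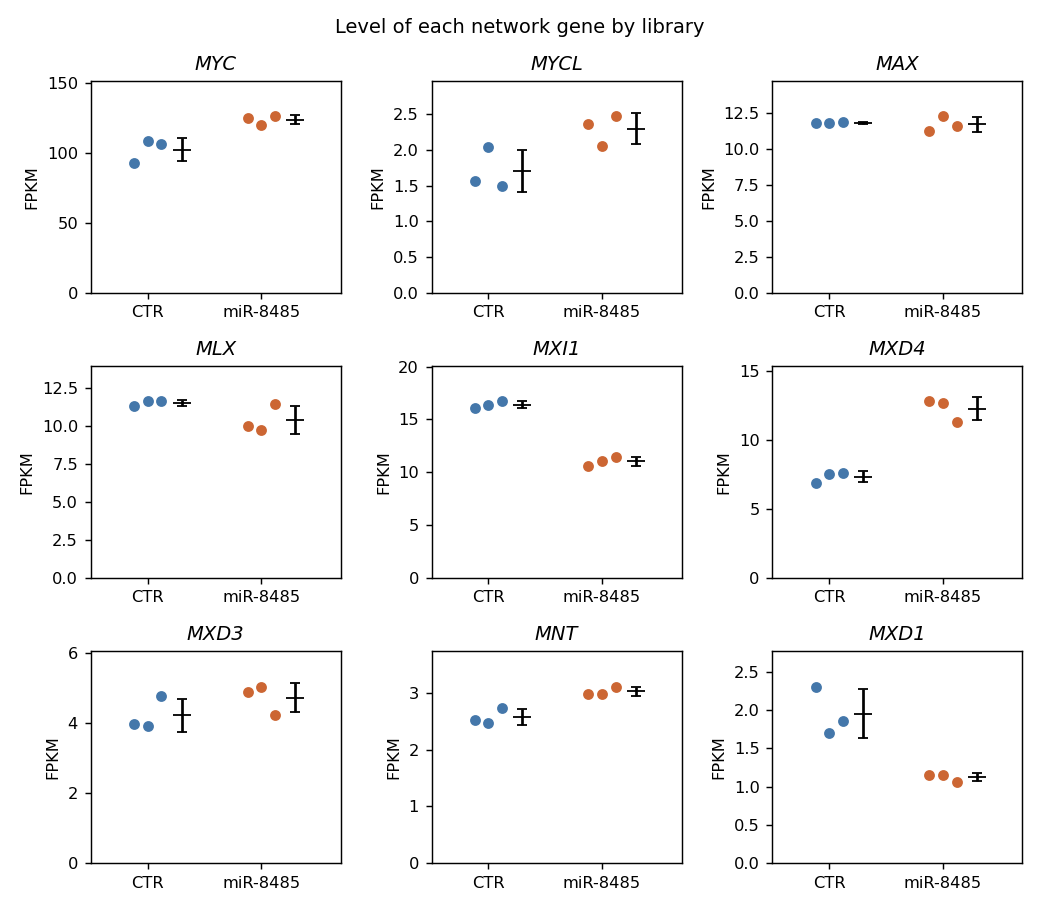
FPKM (y axis, from 0) of the 9 expressed network genes in the 3 CTR and 3 miR-8485 libraries, 1 point per library, with the mean and SD of each group beside the points. The groups are separate for MYC, MYCL, MXI1, MXD4, MNT and MXD1 and overlap for MAX, MLX and MXD3.

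MYC, the most abundant member, spans chromosome 8 of hg38 (plus strand) from 127735434 to 127741434. Its level was 92.8, 108 and 106 FPKM in CTR replicates 1 to 3 and 125, 120 and 126 FPKM in miR-8485 replicates 1 to 3. Every miR-8485 library lay above every CTR library, with CTR replicate 1 the lowest of the 6. The means were 102 ± 8.20 FPKM (SD, n = 3) and 123 ± 3.03 FPKM (SD, n = 3). This corresponds to 0.27 on the log2 scale with a standard error of 0.06 (limma, Benjamini-Hochberg adjusted p = 0.00701). With 5023 to 7189 fragments per library, counting error was small. The call was lost after quantile normalization (log2 fold change 0.22, adjusted p = 0.051). After rescaling to TPM, which shifted the median over all tested genes to -0.12, MYC had 0.16 (adjusted p = 0.0476 in limma).

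MYCL, a relative of MYC with a more restricted expression, lies on chromosome 1 from 39895426 to 39902256. It had 1.57, 2.04 and 1.5 FPKM in CTR and 2.36, 2.05 and 2.47 FPKM in miR-8485. The highest CTR library and the lowest miR-8485 library nearly met, at 187 and 188 fragments. Its estimated rise was 0.42 (log2) with a 95% interval of 0.08 to 0.76 (limma adjusted p = 0.0379). The call was lost without CTR replicate 1 (adjusted p = 0.0942), CTR replicate 3 (0.109), miR-8485 replicate 1 (0.102) or miR-8485 replicate 3 (0.114) in the same limma test.

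MYCN, the member known from neuroblastoma, had 0 fragments in all 6 libraries. The limit that a count of 0 allows, 3 fragments per library, corresponds to 0.0605 to 0.0642 FPKM. MYCNOS, an antisense gene that overlaps MYCN, was also listed at 0 in every library. The only MYC gene with more than 3 FPKM in these cells was therefore MYC.

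MAX, the shared partner through which MYC binds DNA and for which the antagonists compete, covers 65006174 to 65102695 on chromosome 14 (minus strand). It had 11.8, 11.8 and 11.9 FPKM in CTR and 11.3, 12.3 and 11.6 FPKM in miR-8485. The CTR libraries fell inside the range of the miR-8485 libraries. Its estimate of -0.01 had a 95% interval of -0.13 to 0.10 (adjusted p = 0.828 in limma), and its sign depended on the scaling. MYC exceeded MAX 8.64 ± 0.669 times (SD, n = 3) in CTR and 10.5 ± 0.666 times (SD, n = 3) in miR-8485. MAX overlaps FNTB on the other strand, which had 3.90 FPKM in CTR and 3.53 in miR-8485, and whether the counting used strand is not given in the sources used here.

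Among the antagonists, MXD4 had the largest rise. The gene covers 2247432 to 2262294 on chromosome 4 (minus strand), and MXD4 proteins are best known from differentiating, non-dividing cells. It had 6.90, 7.50 and 7.63 FPKM in CTR and 12.8, 12.7 and 11.3 FPKM in miR-8485. All miR-8485 libraries were far above all CTR libraries. Its rise of 0.73 (log2) had a standard error of 0.07 (limma adjusted p = 9.4e-05) and ranged from 0.69 to 0.79 when single libraries were left out. Its promoter is 1 of the 3 with an E-box.

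MXI1, the most abundant antagonist in CTR, moved the other way. The gene covers 110207605 to 110287365 on the plus strand of chromosome 10. It had 16.1, 16.4 and 16.7 FPKM in CTR and 10.6, 11.1 and 11.4 FPKM in miR-8485. The spread within each group was small against the gap between them. The estimate was -0.57 (log2), its standard error 0.05 (limma adjusted p = 5.4e-05), and it ranged from -0.59 to -0.54 when single libraries were left out. MXI1 was the only member that both fell and held a TGTGTGT site in its 3′ UTR. Tested genes with a site had a median log2 fold change of -0.15 and those without a site 0.02, and their median 3′ UTR lengths differed as well, at 2828 and 1034 bases. The part of the site in the fall of MXI1 was not tested.

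MXD1, the founding MXD gene, which is induced when many cell types differentiate, was the lowest antagonist in both groups. It lies on chromosome 2 from 69897688 to 69942945. It had 2.31, 1.7 and 1.86 FPKM in CTR and 1.15, 1.15 and 1.06 FPKM in miR-8485. The 3 miR-8485 libraries were close together and below every CTR library, at 128 to 132 fragments each. Its estimate was -0.74 (log2) with a standard error of 0.15 (limma adjusted p = 0.004), and its 3′ UTR of 4661 bases held no TGTGTGT. MXD1 overlaps SNRNP27 on the same strand, which had 13.0 FPKM in CTR and 10 in miR-8485, so fragments of the shared stretch are uncertain.

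MNT, a broadly expressed repressor and the largest protein among the antagonists, covers 2384060 to 2401118 on chromosome 17 (minus strand). It had 2.52, 2.46 and 2.73 FPKM in CTR and 2.98, 2.98 and 3.11 FPKM in miR-8485. The groups did not overlap, but the gap between them was narrow. MNT thus rose by 0.23 (log2) with a standard error of 0.08 (limma adjusted p = 0.0389). With each of CTR replicates 1 and 2 and miR-8485 replicates 1, 2 and 3 left out in turn, the adjusted p in limma was 0.0812, 0.111, 0.0776, 0.0784 and 0.115. After rescaling to TPM the log2 fold change was 0.12 (adjusted p = 0.289).

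MXD3, which unlike other MXD genes is expressed in dividing cells, had 3.99, 3.93 and 4.78 FPKM in CTR and 4.90, 5.05 and 4.25 FPKM in miR-8485. CTR replicate 3 reached into the range of the miR-8485 libraries. Its estimate of 0.16 (95% interval -0.08 to 0.40, adjusted p = 0.209 in limma) was not past the threshold. MXD3, on chromosome 5 from 177301461 to 177312757, overlaps PRELID1 on the other strand, at 53.3 FPKM in CTR and 58.3 in miR-8485, and RAB24 on the same strand, at 1.45 and 2.90 FPKM, so its counts are uncertain.

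MLX (chromosome 17, 42567068 to 42573239, plus strand) had 11.3, 11.6 and 11.6 FPKM in CTR and 10, 9.70 and 11.4 FPKM in miR-8485. Replicate 3 of miR-8485 lay inside the CTR range. The estimated change was -0.15 (log2, 95% interval -0.31 to 0.01, limma adjusted p = 0.0886). Leaving out miR-8485 replicate 3 brought it past the threshold (-0.22, adjusted p = 0.0172), as did rescaling to TPM (-0.27, adjusted p = 0.0209). MLX overlaps PSMC3IP on the other strand over 925 bases, so fragments of the shared stretch are uncertain. PSMC3IP had 2.61 FPKM in CTR and 1.91 in miR-8485.

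**Figure D2:**
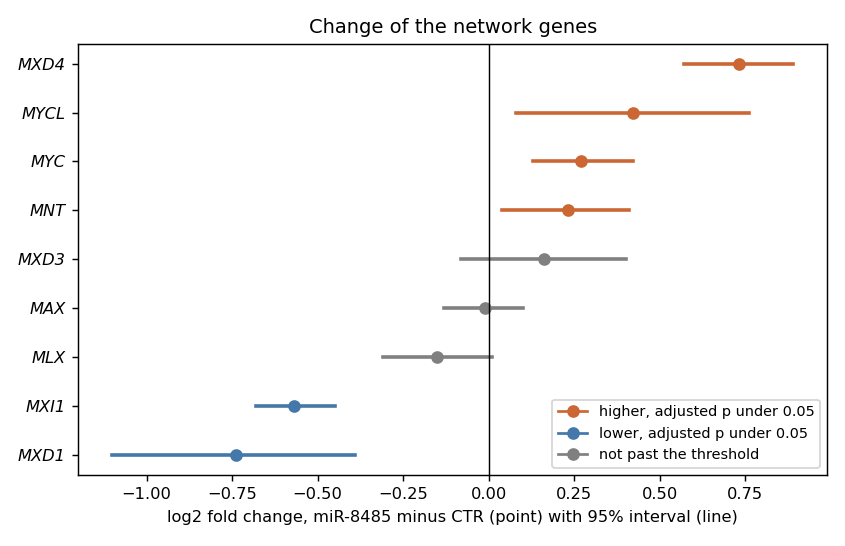
Log2 fold change of the 9 expressed network genes, miR-8485 minus CTR (x axis), with points for the estimate, lines for the 95% interval from limma, and colors for genes called higher, called lower or not past the threshold. MXD4 (0.73) and MXD1 (-0.74) lie at the ends, and the interval of MAX is the narrowest around 0.

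The levels of MXI1 and MXD4 were apart in CTR and not separated in miR-8485. In CTR, MXI1 was above MAX, MLX, MXD4, MXD3, MNT and MXD1, in this order by FPKM, and the libraries of each neighboring pair did not overlap. Any order between genes also rests on the listed gene lengths and on the counting of overlapping genes, which the spread of libraries does not measure. The narrow step from MAX to MLX is thus uncertain. MYCL and MXD1 were not separated in CTR, since their libraries overlapped between 1.7 and 2.04 FPKM. In miR-8485, MXD4, MAX, MXI1 and MLX lay together with means of 12.3, 11.7, 11.1 and 10.4 FPKM. The libraries of each neighboring pair among these 4 genes overlapped, so their order was not resolved. MXD3, MNT, MYCL and MXD1 followed without overlap.

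The rise of MXD4 and the fall of MXI1 were of like size in FPKM, and the summed FPKM of the 5 antagonists was nearly the same in both groups. Both statements rest on the listed gene lengths, 7058 bases for MXD4 and 4607 for MXI1. In fragments per library, MXD4 had 878 to 975 in CTR and 1519 to 1620 in miR-8485. MXI1 had 1339 to 1396 and 880 to 998, so in fragments the rise was larger than the fall. A level total of antagonist RNA is therefore not shown. The sum was 31.8, 31.9 and 33.8 FPKM in CTR and 32.4, 33.0 and 31.1 FPKM in miR-8485, with means of 32.5 ± 1.08 and 32.2 ± 0.99 FPKM (SD, n = 3 each). In FPKM, what differed was the makeup. MXI1 contributed 50.5% ± 0.812 (SD, n = 3) of the sum in CTR and 34.4% ± 1.98 (SD, n = 3) in miR-8485, while MXD4 went from 22.6% ± 0.912 to 38.1% ± 1.56 (SD, n = 3 each). The ratio of MXI1 to MXD4 was 2.34, 2.18 and 2.19 in CTR and 0.832, 0.879 and 1.01 in miR-8485. MXD1 went from 6.02% to 3.47% of the sum, MXD3 from 13.0% to 14.7% and MNT from 7.91% to 9.40%. Sums and ratios over the members are descriptions, with no test.

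With the sum level in FPKM and MYC higher, MYC stood further above its antagonists in miR-8485. MYC exceeded their sum 2.92, 3.37 and 3.15 times in CTR and 3.84, 3.63 and 4.05 times in miR-8485. The groups did not overlap. On the log2 scale the ratio was 1.65 ± 0.10 (SD, n = 3) in CTR and 1.94 ± 0.08 (SD, n = 3) in miR-8485, a difference of 0.29. A ratio within a library does not depend on how libraries are scaled to each other, but it rests on the listed gene lengths. It compares RNA levels and not proteins or bound pairs.

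**Figure D3:**
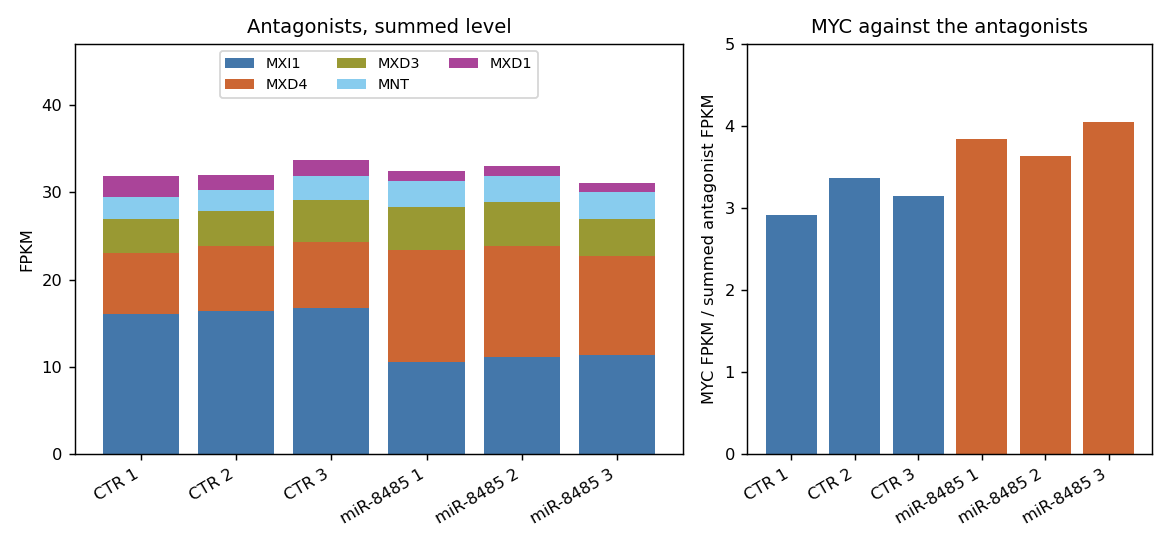
Left, FPKM of the 5 antagonists stacked for each of the 6 libraries (y axis, from 0). Right, MYC FPKM divided by the summed antagonist FPKM in the same libraries. The stacks keep a height of 31.1 to 33.8 FPKM while the MXI1 part shrinks and the MXD4 part grows, and the ratio is 2.92 to 3.37 in CTR and 3.63 to 4.05 in miR-8485. Heights and ratios rest on the listed gene lengths.

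Genes around the network, called partner genes here, were described by a list of 34 genes, of which 32 passed the filter. Besides genes whose protein works with the network, it held TXNIP and ARRDC4, which MLXIP and MLXIPL control, and the noncoding RNA gene PVT1. In miR-8485, 8 of the 32 genes rose and 12 fell, or 25.0% and 37.5% beside 29.1% and 30.5% of all tested genes. Their median log2 fold change was -0.10, against -0.0041 over all tested genes. Under TPM the counts were 4 and 15, where 21.2% of all tested genes were higher and 38.3% lower. Among the genes of the MLX branch, both glucose-sensing partners of MLX fell, MLXIP from 7.53 to 5.26 FPKM (log2 fold change -0.51, adjusted p = 0.00073) and MLXIPL from 15.9 to 12.5 FPKM (-0.35, adjusted p = 0.00497, both limma). ARRDC4, an arrestin-like gene that these factors induce, rose from 1.93 ± 0.222 to 3.22 ± 0.495 FPKM (SD, n = 3 each), or by 0.71 on the log2 scale (limma adjusted p = 0.00311). MGA, a large MAX partner, had a log2 fold change of -0.14 and was not past the threshold.

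Of the 6 genes of the SIN3 corepressor, which the MXD proteins, MXI1 and MNT recruit, 2 fell and 1 rose. These were 33.3% and 16.7%, beside 30.5% and 29.1% of all tested genes. SIN3A, the scaffold, fell from 6.09 ± 0.137 to 3.15 ± 0.392 FPKM (SD, n = 3 each), which is -0.94 on the log2 scale with a standard error of 0.09 (limma adjusted p = 0.00012). Its paralog SIN3B rose from 8.36 to 9.91 FPKM (log2 fold change 0.24, adjusted p = 0.017), so the order of the 2 scaffolds by FPKM, with SIN3B the higher, was the same in both groups and the distance between them wider in miR-8485. The SIN3B call was lost under TPM (0.13, limma adjusted p = 0.117) and without miR-8485 replicate 1 or 3. Under TPM 3 of the 6 genes were lower and 0 higher, beside 38.3% and 21.2% of all tested genes. The deacetylase HDAC1 fell from 51.3 to 45.4 FPKM (-0.18, adjusted p = 0.0051). HDAC2, SUDS3 and SAP30 were not past the threshold.

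Of the 11 MYC cofactors, 4 fell and 2 rose, or 36.4% and 18.2% beside 30.5% and 29.1% of all tested genes. The acetyltransferases of the cofactor complexes went in opposite directions, with KAT5 at 4.38 FPKM in CTR and 2.88 in miR-8485 (log2 fold change -0.59, adjusted p = 0.00045) and KAT2A at 15.0 and 21.9 FPKM (0.54, adjusted p = 0.00014, limma). SMARCB1, a chromatin remodeling subunit, fell by 0.58 and BPTF, a nucleosome remodeling factor, by 0.45 on the log2 scale, and the helicase RUVBL1 rose by 0.28. TRRAP, the scaffold that carries both acetyltransferases, had a log2 fold change of 0.01.

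Of the 10 genes that act on the stability of the MYC protein, 4 fell and 3 rose, or 40% and 30%. Over all tested genes the shares were 30.5% and 29.1%. Under TPM 5 of the 10 were lower and 0 higher, beside 38.3% and 21.2% of all tested genes. The largest falls were those of CIP2A, which protects MYC from dephosphorylation, from 9.08 to 3.92 FPKM (log2 fold change -1.20, adjusted p = 3.9e-05), and of the mitotic kinase AURKA, which shields MYC family proteins from degradation, from 31.9 to 14.5 FPKM (-1.13, adjusted p = 3.6e-06, limma). GSK3B, whose phosphorylation of MYC is read by the ubiquitin ligase subunit FBXW7, fell by 0.32 on the log2 scale, while FBXW7 had -0.02 and was not past the threshold. The deubiquitinase USP36 rose by 0.24 and the ligase subunit SKP2 by 0.21. Under TPM both calls were lost (0.12 and 0.10, limma adjusted p = 0.15 and 0.294). The call of USP36 was also lost without CTR replicate 2, miR-8485 replicate 1 or miR-8485 replicate 3, and that of SKP2 without CTR replicate 1, CTR replicate 3, miR-8485 replicate 2 or miR-8485 replicate 3 and in the fit of all genes above 0. PVT1, a long noncoding RNA gene next to MYC, rose from 8.36 ± 0.224 to 12.5 ± 0.0476 FPKM (SD, n = 3 each), or by 0.58 on the log2 scale (limma adjusted p = 4.3e-05). This was a larger estimate than the 0.27 of MYC, and the difference was not tested.

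Genes known as raised by MYC formed a list of 67 genes, of which 65 were tested. In miR-8485, 27 rose and 13 fell, or 41.5% and 20% beside 29.1% and 30.5% of all tested genes. The median log2 fold change was only 0.07, with a range of -1.02 to 1.01. After rescaling to TPM the counts were 21 and 23, beside 21.2% of all tested genes higher and 38.3% lower, and the median was -0.04, beside -0.12. The largest rises were those of EXOSC5, a subunit of the RNA exosome, from 24.2 to 48.8 FPKM (log2 fold change 1.01), the uracil-DNA glycosylase UNG, from 26.4 to 47 FPKM (0.83), and ODC1, the first enzyme of polyamine synthesis and a classical MYC target, from 134 to 229 FPKM (0.77), with adjusted p between 6.6e-06 and 9.9e-06 in limma. The largest falls were those of PLK4, the kinase of centriole duplication, at -1.02, the heterochromatin protein gene CBX3 at -0.83 and the mitotic kinase PLK1 at -0.82.

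Grouped by function after their values were seen, the genes of this list differed in counts. Over all tested genes 29.1% rose and 30.5% fell, and under TPM 21.2% were higher and 38.3% lower. Of 31 tested genes of ribosome assembly and RNA polymerase I, 13 rose and 6 fell, or 41.9% and 19.4%. Their median log2 fold change was 0.08, but under TPM 8 were higher and 12 lower, with a median of -0.03. Of 9 genes of nucleotide, polyamine and sugar metabolism, 5 rose and 1, the lactate dehydrogenase gene LDHA, fell from 443 to 280 FPKM. Under TPM 5 of these 9 were higher and 3 lower. Of 6 genes of the cell cycle and chromatin, 4 fell and 1, the cyclin-dependent kinase gene CDK4, rose from 27.0 to 38.9 FPKM. Under TPM 5 of these 6 were lower and 1 higher. Of the other 19 tested genes of the list, 8 rose and 2 fell, and under TPM 7 were higher and 3 lower. Promoters were matched for 54 genes of the list, and 29 of 72 promoters, or 40.3%, held an E-box. Of 27 tested genes with an E-box 10 rose and 5 fell, and of 25 tested genes without it 9 rose and 7 fell, with medians of 0.02 and 0.01. Under TPM these counts were 8 higher and 10 lower with an E-box and 7 and 10 without it.

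Of 7 genes known as repressed by MYC, 6 fell and 0 rose, or 85.7% and 0% beside 30.5% and 29.1% of all tested genes. Their median log2 fold change was -0.59. Under TPM 6 were lower and 0 higher, beside 38.3% and 21.2% of all tested genes. For all 7 the miR-8485 libraries lay below the CTR libraries, as for 34.0% of all tested genes. The CDK inhibitor gene CDKN2B fell from 2.85 ± 0.169 to 0.799 ± 0.0705 FPKM (SD, n = 3 each), which is -1.71 on the log2 scale with a standard error of 0.13 (limma adjusted p = 3.3e-05). NDRG1, a stress- and differentiation-induced gene, fell from 37.6 to 21.1 FPKM (-0.83). CDKN1A, the p21 gene, which p53 also controls, fell from 259 to 161 FPKM (-0.68). NDRG2 had a log2 fold change of -0.09 and was not past the threshold. The list is short and, like the other lists, was chosen with earlier results of these data known. Several of its genes answer to other factors as well.

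**Figure D4:**
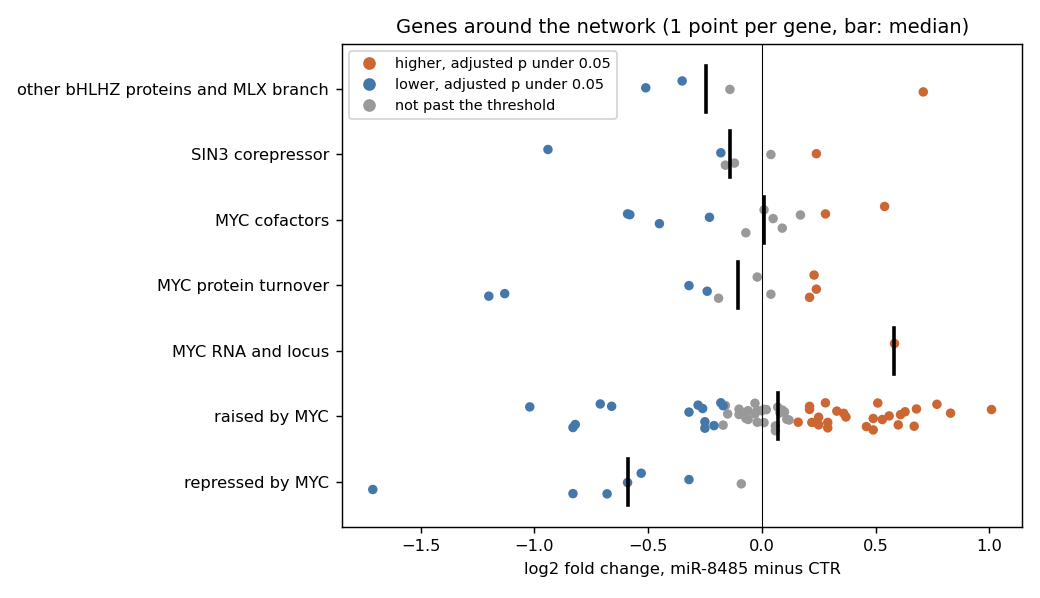
Log2 fold change, miR-8485 minus CTR (x axis), of each tested gene (1 point) in 7 groups of genes around the network (y axis), with the median of each group as a bar and colors for genes called higher, called lower or not past the threshold. Genes raised by MYC spread from -1.02 to 1.01 around a median of 0.07, and the 7 genes repressed by MYC all lie below 0.

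The genes whose pattern over the 6 libraries was most like that of MYC were PFKM, GRINA, VARS, AKT1 and SIN3B, with a root mean square distance of 0.0229 to 0.0344 on the log2 scale after each gene was centered on its CTR mean. Their log2 fold changes were 0.24 to 0.30. For MXD1, taken for its absolute log2 fold change of 0.74, which exceeded the 0.73 of MXD4 only narrowly, the nearest were BRWD3, MSX1, TMEM56, CDCA3 and SSX2IP, at distances of 0.055 to 0.069. These are descriptions over 6 libraries that share the group difference.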

How the data were processed

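RNA-seq was performed on 3 CTR and 3 miR-8485 libraries of HCT116 cells, grouped by the sample titles. The deposited FPKM values were made by the authors with fastp (trimming), HISAT2 2.0.5 (mapping to hg38) and featureCounts 1.5.0-p3 (fragments per gene). Replicates are labelled as independent biological ones. Counting rules for strand and overlapping genes are not given in the sources used here. Multiplied back, 100% of nonzero FPKM values gave whole fragments (tolerance 0.01) in each library, which gave the depth.

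Differential expression was tested on log2(FPKM + 0.1) by limma 3.58.1 (R 4.3.3, trended prior variance) in the 12349 genes whose mean FPKM reached 1, with Benjamini-Hochberg adjustment over all of them. The fit was also run on simulated libraries. Far fewer genes were changed there than were called here, so the conditions of these data were not checked. The other steps used Python 3.11.15 with numpy 2.4.6 and pandas 2.3.3. The members and lists were chosen with earlier results of these data known, and the lists came from general knowledge. Named were all 10 members and, per list group, up to 3 called genes with the largest rise and 3 with the largest fall whose libraries did not overlap. Other genes were named after their values were seen. Alternatives were pseudocounts of 1 and 0.01, no filter, a filter of 5 FPKM, median-of-ratios, quantile and TPM scaling, no variance trend, a replicate block, each library left out, voom on recovered fragments, MNT left out of the antagonists, the canonical 3′ UTR and, chosen after seeing the data, scaling to fragments outside the mitochondrial genome.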

Additional observations from a re-analysis of the deposited data

How the results depend on the processing

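The calls of MXD4, MXI1 and MXD1 kept their direction and side of the threshold in every alternative that tested them. MXD1, MXD3, MYCL and MNT had no value with the filter of 5 FPKM, which left 5 members with 2 higher and 1 lower. The members called higher numbered 2 in place of 4 in the fit of all genes above 0, under TPM and with the replicate block, because MYCL and MNT were lost. With each library left out in turn they numbered 2 to 3 and the members called lower 2 to 3, the partner genes 5 to 7 higher and 10 to 13 lower, the genes raised by MYC 24 to 27 higher and 10 to 13 lower, and the difference of the log2 ratio of MYC to the antagonists was 0.24 to 0.34. Under TPM, with 21.2% of all tested genes higher and 38.3% lower, 4 partner genes were higher and 23 genes raised by MYC lower. MAX changed sign, to 0.03 after quantile normalization, 0.01 without miR-8485 replicate 1 and 0.01 with scaling outside the mitochondrial genome, and was -0.05 without miR-8485 replicate 2 and -0.13 under TPM (adjusted p = 0.103 in limma), each time not past the threshold. MXD1 had a larger absolute change than MXD4 in the main fit of all 6 libraries. The order was reversed without CTR replicate 1 (-0.62 against 0.69) and without miR-8485 replicate 3 (-0.71 against 0.79). So it was with a pseudocount of 1 (-0.47 against 0.67) and with median-of-ratios scaling (-0.73 against 0.74). Scaling outside the mitochondrial genome reversed it as well (-0.72 against 0.76). The cause of these changes was not tested. Replicate numbers gave no pairing, as the deviations of same-numbered libraries correlated at 0.0668, 0.0335 and -0.064. With the block 3634 genes were higher and 3754 lower, against 3593 and 3769. Depth limits MYCL and MXD1 most, at 128 to 264 fragments per library.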

Other observations

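A few genes of the lists could not be compared because of their level in the table. TXNIP, a glucose-responsive gene that MLXIP and MLXIPL control, was listed at 0 in all 6 libraries, while its relative ARRDC4 had 1.93 FPKM in CTR and 3.22 in miR-8485. NOP2 and IPO4, genes of ribosome assembly and nuclear import, were listed at 0.161 and 0.125 FPKM in CTR, and each is overlapped on the same strand by another protein-coding gene of the table, over 11806 and 8570 bases, that held at most 1 and 3 fragments in any library. IGF2BP1, an RNA-binding protein gene known to stabilize MYC mRNA, had 0.0911 FPKM in CTR and 0.16 in miR-8485.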
